A study of Rattus norvegicus with 24 samples.

Results

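Asns, Slc7a3, Aldh1l2 and Pck2 are 4 genes of amino acid and one-carbon metabolism, followed here by their identifiers among the 32883 genes that most of the deposited count files list. The 4 genes were selected on the comparison of dolutegravir-treated with DMSO-treated oligodendrocytes (OLs), so their values in that comparison are given as a description and not as a test. Primary oligodendrocyte precursor cells (OPCs) from the cortices of newborn Sprague Dawley rats were grown for 24 h in proliferation medium, or for 24 h in proliferation medium and then 72 h in differentiation medium to give OLs. At each stage the cultures were untreated, received 0.04% DMSO as the vehicle, or received 8 µM dolutegravir (DTG), an HIV integrase inhibitor, and in the OL groups the treatment ran through both media. Each of the 6 groups had 4 poly(A) RNA-seq libraries, the replicates being cultures of separate litters.

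Cells that run short of an amino acid, or that meet other stresses that phosphorylate the translation factor eIF2, make more of the transcription factor ATF4. ATF4 binds composite C/EBP-ATF sites and is known to raise transcription of genes that make or import amino acids and that feed the mitochondrial folate pathway, in which one-carbon units from serine are carried on tetrahydrofolate. Oligodendrocytes take up such nutrients to build myelin membrane. Asns encodes asparagine synthetase, which makes asparagine from aspartate with glutamine as the nitrogen donor. Slc7a3 encodes CAT3, a plasma membrane carrier of the cationic amino acids arginine, lysine and ornithine. Aldh1l2 encodes the mitochondrial 10-formyltetrahydrofolate dehydrogenase, which releases the one-carbon unit as carbon dioxide with the reduction of NADP. Pck2 encodes the mitochondrial phosphoenolpyruvate carboxykinase, which turns oxaloacetate into phosphoenolpyruvate.

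On the annotation of 22 of the 24 files, Asns (ENSRNOG00000007546) lies on the minus strand of chromosome 4 from 33743364 to 33761163. Slc7a3 (ENSRNOG00000004133) lies on the minus strand of chromosome X from 70972765 to 70978952. Aldh1l2 (ENSRNOG00000008586) spans chromosome 7 from 26375866 to 26425108 on the plus strand, and Pck2 (ENSRNOG00000018536) spans chromosome 15 from 34216833 to 34224193 on the plus strand. The submitters' processing notes name the build Rnor_6.0. Their counted exons add up to 2226, 3042, 2769 and 1926 bases in that order, and 0 other annotated genes overlap any of the 4 spans on either strand.

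The promoters are shown because ATF4 targets are known to carry C/EBP-ATF sites near their starts. RefSeq windows on the GRCr8 build were at hand for Asns and Pck2, and for Slc7a1, the gene of the related cationic amino acid carrier CAT1. Each line gives the 250 bases before the annotated start, 5′ to 3′ on the gene's own strand, and capitals mark a match to TGATGNAA on either strand, the core letters of a C/EBP-ATF site. Asns is chr4:36769416-36769665 on the minus strand, Pck2 is chr15:32997603-32997852 on the plus strand and Slc7a1 is chr12:11664238-11664487 on the plus strand.
Asns: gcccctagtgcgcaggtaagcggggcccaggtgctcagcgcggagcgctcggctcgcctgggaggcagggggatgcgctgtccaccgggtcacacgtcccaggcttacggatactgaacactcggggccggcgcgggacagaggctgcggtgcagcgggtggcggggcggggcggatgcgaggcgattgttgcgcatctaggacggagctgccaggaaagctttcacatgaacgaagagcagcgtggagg
Pck2: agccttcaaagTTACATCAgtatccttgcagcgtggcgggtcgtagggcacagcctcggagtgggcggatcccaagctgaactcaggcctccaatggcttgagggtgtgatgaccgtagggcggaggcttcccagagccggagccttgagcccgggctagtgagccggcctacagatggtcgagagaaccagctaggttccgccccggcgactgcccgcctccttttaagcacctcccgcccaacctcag
Slc7a1: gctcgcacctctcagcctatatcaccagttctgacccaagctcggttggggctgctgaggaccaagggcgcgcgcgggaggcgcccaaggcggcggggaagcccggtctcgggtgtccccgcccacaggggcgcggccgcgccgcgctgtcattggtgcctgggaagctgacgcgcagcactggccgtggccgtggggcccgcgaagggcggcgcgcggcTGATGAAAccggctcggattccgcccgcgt
The Slc7a1 window held TGATGAAA on the sense strand, 30 to 23 bases before the start. The Pck2 window held the motif on the opposite strand, read as TTACATCA, 239 to 232 bases before the start. These letters were not found in the Asns window. That window covers 250 bases before 1 annotated start, and other bases, other starts and near matches were not searched. Over all 33469 promoters of the table, 3.40% held the motif in the same 250 bases. By symbol, the windows of amino acid synthesis genes held it in 2 of 20 cases, those of amino acid transporters in 3 of 25, those of cytosolic aminoacyl-tRNA synthetases in 5 of 17, those of folate one-carbon genes in 0 of 18, those of phosphoenolpyruvate and glycolysis genes in 2 of 19 and those of sensors and regulators of the amino acid response in 3 of 18.

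Gene counts per library summed to between 13241279 and 18499994, and the spiked ERCC control RNAs took 1.06% to 7.19% of all counts. The OL marker genes Mbp and Mog, which encode myelin proteins, together ranged from 4273 to 11352 CPM (counts per 1000000 gene counts, after TMM scaling) in OLs with DMSO against 145 to 310 CPM in OPCs with DMSO. The precursor markers Pdgfra and Cspg4 together ranged from 543 to 1079 CPM in OPCs with DMSO and from 168 to 338 CPM in OLs with DMSO. The 2 neuronal markers with an identifier, Snap25 and Stmn2, summed to 25.5 to 51.0 CPM in OPCs with DMSO and 3.77 to 9.00 CPM in OLs with DMSO. Each sum covers 2 markers, of 6 listed for OLs and of 4 each for precursors and neurons, that have an identifier because the study's tables of changed genes name them, and none of the listed astrocyte, microglia or fibroblast and endothelial markers could be matched to an identifier here. The files of untreated replicate 3 at both stages rest on another annotation with 30560 genes, so the untreated groups are given with 3 libraries unless stated.

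In OLs with DTG, all 4 genes stood at their highest group mean. Asns measured 217, 149, 169 and 182 CPM in replicates 1 to 4 with DTG, against 25.0, 49.3, 62.4 and 47.3 CPM with DMSO. The groups were far apart, with the lowest DTG library well above the highest DMSO library. The fitted log2 fold change of Asns was 1.95 with a standard error (SE) of 0.22. Slc7a3 measured 119, 30.1, 30.3 and 29.2 CPM with DTG, against 16.2, 6.30, 11.9 and 7.60 CPM with DMSO. Replicate 1 with DTG stood apart from the other three DTG libraries, which lay close together and still above every DMSO library. The fitted log2 fold change of Slc7a3 was 2.29 (SE 0.46) with that library and 1.49 (SE 0.27) without it.

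Aldh1l2 measured 26.6, 6.86, 6.43 and 10.8 CPM with DTG, against 4.12, 5.07, 3.04 and 3.04 CPM with DMSO. Its groups did not overlap, but the gap between replicate 3 with DTG and replicate 2 with DMSO was small. The log2 fold change of Aldh1l2 was 1.72 (SE 0.43), and 1.07 (SE 0.28) without replicate 1 with DTG. Pck2 measured 65.5, 21.7, 28.9 and 30.8 CPM with DTG, against 11.6, 8.55, 17.9 and 13.4 CPM with DMSO. Replicate 1 again was the highest DTG library, and replicate 3 the highest DMSO library. The log2 fold change of Pck2 was 1.51 (SE 0.32), and 1.07 (SE 0.23) without replicate 1 with DTG.

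Myelin marker levels were lower in the same DTG libraries. The sum of Mbp and Mog ranged from 1738 to 4323 CPM in OLs with DTG (median 3311), against a median of 8811 CPM with DMSO, and the ranges met only at their ends. Most of that sum was Mbp. Mog alone ranged from 20.6 to 26.6 CPM with DTG and from 33.9 to 51.5 CPM with DMSO. The precursor marker sum ranged from 130 to 313 CPM and the neuronal one from 2.39 to 9.12 CPM in OLs with DTG, overlapping the DMSO libraries. Their part in the levels of the 4 genes was not tested.

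At an adjusted p below 0.05 and more than a 2-fold change, the thresholds the study used, 0.582% of the 12710 genes tested in this comparison were called. Asns, Slc7a3 and Pck2 were among them and Aldh1l2 was not, while DESeq2 and a fit that blocked on the replicate number each called all 4. The fit with no filter on low counts also called Aldh1l2, at a log2 fold change of 1.73. All 4 genes had groups that did not overlap, which held in the higher direction for 4.15% of the genes tested. Nothing is read from these counts, since the comparison chose the genes. Scaling to the ERCC controls moved the median of all genes to 0.59 on the log2 scale and the values to 2.64 for Asns, 2.93 for Slc7a3, 2.36 for Aldh1l2 and 2.17 for Pck2. Above that median they stood at 2.05, 2.34, 1.77 and 1.58, against 1.94, 2.28, 1.71 and 1.50 on the main scale. With ERCC scaling 19 genes were called higher and 0 lower, Asns and Slc7a3 among them and Pck2 not, where the main scale called 47 higher and 27 lower. The number of calls among the 4 fell to 1 in the fits without replicate 2, 3 or 4 of the DMSO group or replicate 4 of the DTG group, where only Asns was called.

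**Figure D1:**
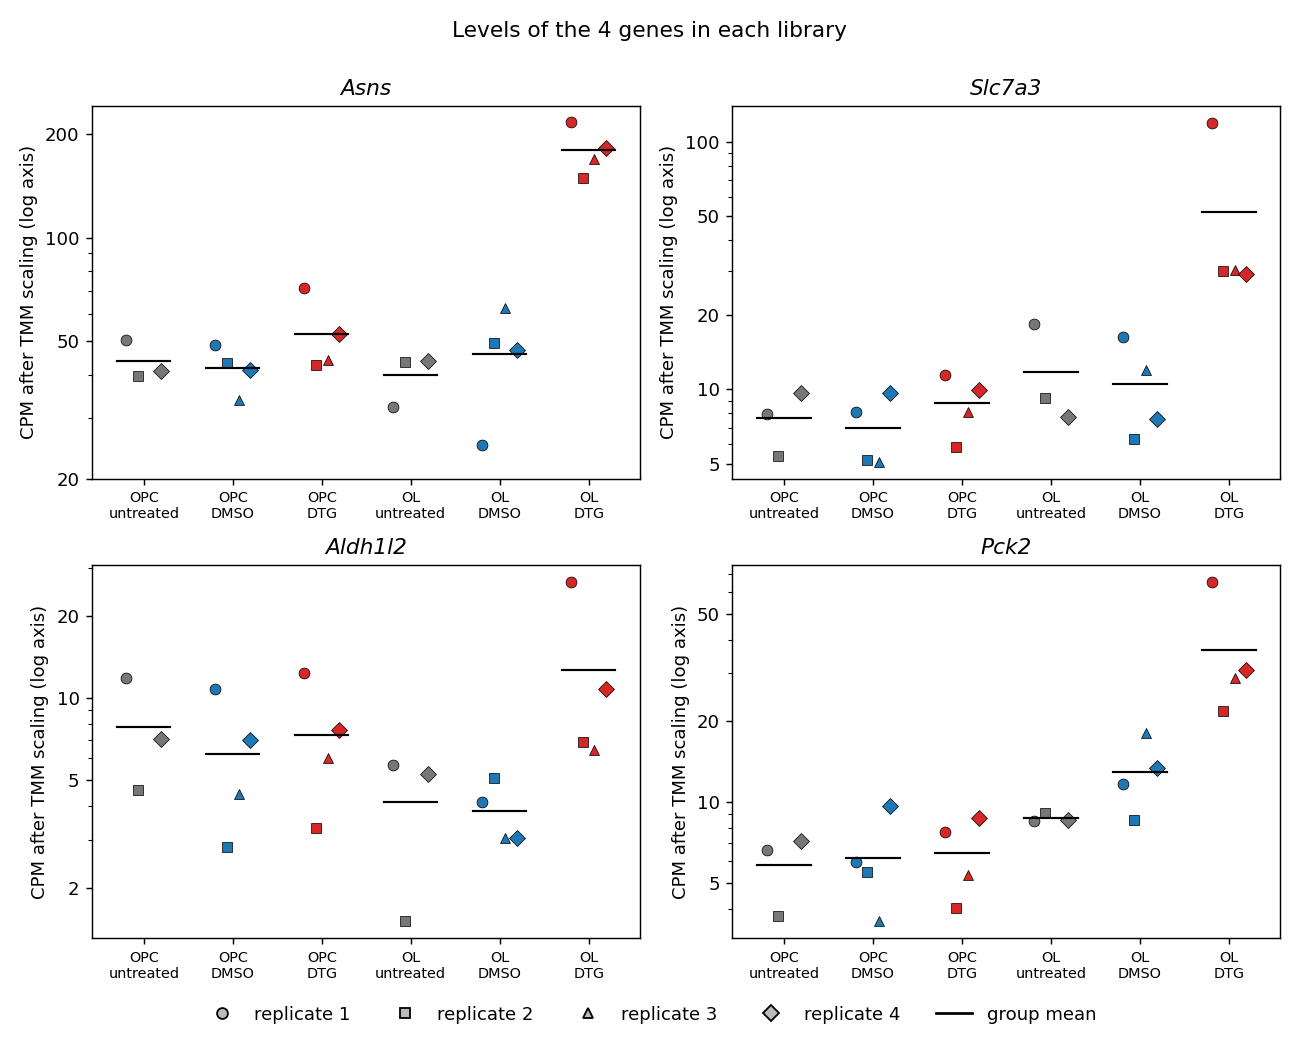
CPM after TMM scaling (log axis) for the 4 genes in the 22 libraries that share an annotation, with 1 symbol for each replicate number and a line at each group mean. In the OL DTG group the 4 Asns libraries sit between 149 and 217 CPM, above all other libraries, and replicate 1 is the highest library of that group in every panel.

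Within the same replicate number, the fold of DTG over DMSO in OLs was largest in replicate 1 for each of the 4 genes. Asns rose 8.66-fold there, against 2.70-fold to 3.84-fold in the other three pairs. For Slc7a3 the pairs gave 7.35-fold, 4.77-fold, 2.54-fold and 3.85-fold in replicates 1 to 4. For Aldh1l2 they gave 6.46-fold, 1.35-fold, 2.11-fold and 3.55-fold, and for Pck2 5.64-fold, 2.54-fold, 1.61-fold and 2.30-fold. The DMSO library of replicate 1 also held the lowest Asns level of the 22 libraries, at 25.0 CPM. Being higher in every pair was true of 12.9% of all genes tested.

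The OPC libraries were not used to choose the genes, so the comparison of DTG with DMSO in proliferating OPCs could be tested. None of the 4 genes was called there. Asns measured 71.3, 42.7, 44.1 and 52.4 CPM with DTG, against 48.8, 43.3, 33.8 and 41.4 CPM with DMSO. The groups overlapped, and replicate 1 with DTG was the one library clearly above the rest. The log2 fold change of Asns was 0.33 (SE 0.21, 95% confidence interval -0.13 to 0.80), with an edgeR adjusted p of 0.907. Slc7a3 measured 11.5, 5.83, 8.14 and 9.94 CPM with DTG, against 8.09, 5.21, 5.11 and 9.67 CPM with DMSO. Its log2 fold change was 0.34 (SE 0.30, interval -0.33 to 1.01; edgeR adjusted p = 0.907). In both groups replicates 1 and 4 were the highest libraries.

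Aldh1l2 measured 12.3, 3.30, 5.98 and 7.58 CPM in OPCs with DTG, against 10.7, 2.81, 4.43 and 6.97 CPM with DMSO. The replicates kept the same order in both groups, with replicate 1 highest and replicate 2 lowest. The log2 fold change of Aldh1l2 was 0.23 (SE 0.47, interval -0.81 to 1.27; edgeR adjusted p = 0.914). Pck2 measured 7.70, 4.02, 5.31 and 8.71 CPM with DTG, against 5.96, 5.48, 3.59 and 9.60 CPM with DMSO, so the groups overlapped throughout. Its log2 fold change was 0.08 (SE 0.35, interval -0.70 to 0.86; edgeR adjusted p = 0.956).

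Across the 13270 genes tested in OPCs, 0% were called by edgeR, with 69 genes at an unadjusted p below 0.05, and DESeq2 called 0 genes as well. Slc7a3 and Aldh1l2 were higher with DTG in 4 of 4 same-numbered pairs, Asns in 3 of 4 and Pck2 in 2 of 4, where 7.52% of all genes were higher in every pair. With the replicate number as a block, the log2 fold change of Asns was 0.32 (SE 0.13, edgeR adjusted p = 0.504). That of Aldh1l2 was 0.24 (SE 0.18, interval -0.16 to 0.65, edgeR adjusted p = 0.523), where its main fit had an SE of 0.47. The block put 871 genes at an unadjusted p below 0.05 in edgeR and called 0 genes. Whether the response differed between the stages was not tested, because the OL side chose the genes. OPCs had met the drug for 24 h and OLs for the full culture, so stage and length of exposure cannot be told apart.

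**Figure D2:**
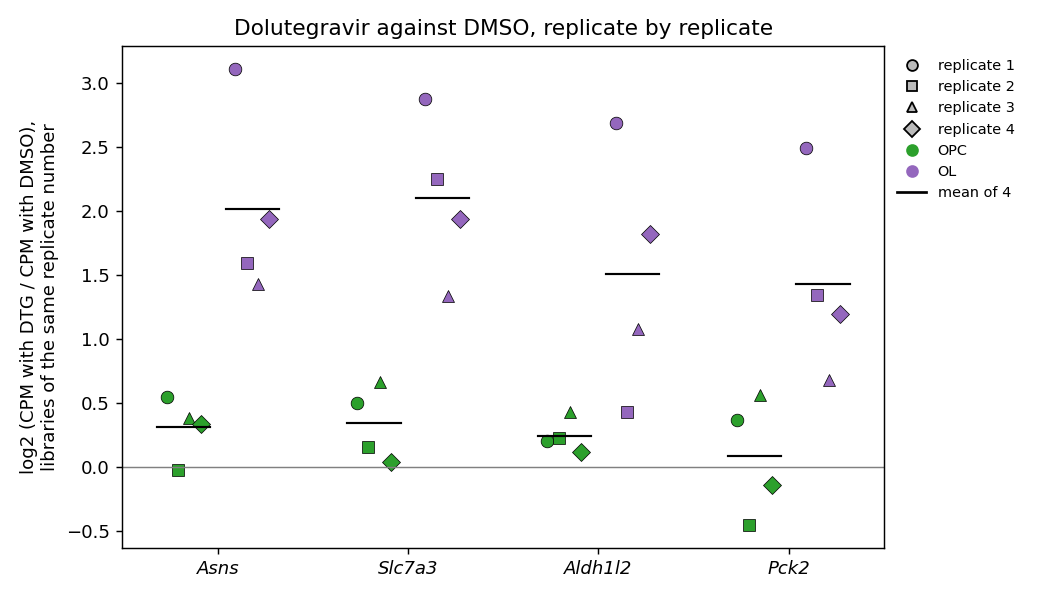
The log2 ratio of DTG to DMSO for libraries of the same replicate number, with OPC pairs in green, OL pairs in purple and a line at the mean of 4 pairs. For Asns the OL pairs sit between 1.43 and 3.11 and the OPC pairs between -0.02 and 0.55, while for Aldh1l2 the lowest OL pair, at 0.44, lies beside the highest OPC pair, at 0.43.

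The untreated groups showed the levels without vehicle or drug, and neither group was used to choose the genes. Asns measured 50.6, 39.6 and 41.0 CPM in untreated OPCs (replicates 1, 2 and 4) and 32.2, 43.6 and 43.8 CPM in untreated OLs. The log2 fold change of OLs over OPCs was -0.14 (SE 0.18, interval -0.55 to 0.27; edgeR adjusted p = 0.580). Slc7a3 measured 7.98, 5.40 and 9.68 CPM in untreated OPCs and 18.4, 9.27 and 7.76 CPM in untreated OLs. Replicates 1 and 2 were higher as OLs and replicate 4 was lower, and the log2 fold change was 0.62 (SE 0.36; edgeR adjusted p = 0.199).

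Aldh1l2 measured 11.8, 4.58 and 7.08 CPM in untreated OPCs and 5.67, 1.50 and 5.25 CPM in untreated OLs. It was lower in OLs in each of the 3 pairs, and the log2 fold change was -0.89 (SE 0.46; edgeR adjusted p = 0.153). With the replicate number as a block, the log2 fold change of Aldh1l2 was -0.95 (SE 0.31; edgeR adjusted p = 0.0266), past the significance threshold but short of a 2-fold change. Pck2 measured 6.59, 3.77 and 7.14 CPM in untreated OPCs and 8.47, 9.11 and 8.54 CPM in untreated OLs. Its groups did not overlap, which held in the higher direction for 25.5% of all genes tested, and its log2 fold change was 0.57 (SE 0.28; edgeR adjusted p = 0.128).

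In untreated cultures 0 of the 4 genes were called between the stages, where 23.0% of the 13110 genes tested were. With all 4 libraries a group on the identifiers that both annotations share, Pck2 was called at a log2 fold change of 1.10 (SE 0.37; edgeR adjusted p = 0.0443). That call rests on untreated OL replicate 3, where Pck2 stood at 20.9 CPM over shared identifiers against 8.77, 9.40 and 8.81 CPM in the other three. In the file of that library the counted exons of Pck2 add up to 3561 bases in place of 1926. The same holds for untreated OPC replicate 3. Pck2 stood there at 4.15 CPM over shared identifiers, against 6.83, 3.90 and 7.40 CPM in the other untreated OPC libraries. On the annotation of the 22 files, replicate 3 was also the highest OL DMSO library for Pck2, at 17.9 CPM. The part of the annotation in the value of untreated OL replicate 3 was not tested.

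Under DMSO, Pck2 was higher in OLs than in OPCs. The OL levels of 11.6, 8.55, 17.9 and 13.4 CPM compared with 5.96, 5.48, 3.59 and 9.60 CPM in OPCs, and every same-numbered pair was higher in OLs. The log2 fold change of Pck2 was 1.10 (SE 0.32; edgeR adjusted p = 0.0134). It fell short of 2-fold without OL replicate 3, at 0.92, and without OPC replicate 3, at 0.88. Asns had a log2 fold change of 0.16 (SE 0.25; edgeR adjusted p = 0.613), Slc7a3 of 0.61 (SE 0.34; edgeR adjusted p = 0.141) and Aldh1l2 of -0.68 (SE 0.39; edgeR adjusted p = 0.155). Between these groups 32.6% of the 13023 genes tested were called, and 1 of the 4 genes was. The OL DMSO libraries were also the reference of the comparison that chose the genes.

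These stage values depend on the scale. Scaling to the ERCC controls shifted the whole distribution, with a median over genes of -1.52 on the log2 scale under DMSO and of -0.59 in untreated cultures. The calls under DMSO went from 1831 higher and 2414 lower to 278 higher and 6701 lower, and those in untreated cultures from 1461 higher and 1555 lower to 461 higher and 1795 lower. On that scale Pck2 had a log2 fold change of -0.25 under DMSO, which was 1.27 above the median of all genes, against 1.22 above it on the main scale. Aldh1l2 had -2.07 (SE 0.75; edgeR adjusted p = 0.0124), which was 0.55 below that median, against 0.56 below it on the main scale. The controls went into equal amounts of total RNA, so this scale does not measure cell number or RNA per cell. Across the OL DMSO libraries the ERCC share ran from 2.19% to 7.19%. In bulk samples, fewer cells of a type and less RNA per cell cannot be told apart. The neuronal marker sum was lower in OLs, as given above, but its 2 genes have identifiers only through the study's table of genes changed between these stages. Its part in the stage values was not tested.

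DMSO itself was compared with no treatment. In OPCs the log2 fold changes were -0.04 for Asns, -0.11 for Slc7a3, -0.31 for Aldh1l2 and 0.09 for Pck2, each within 1 SE of 0. The edgeR adjusted p was 1.00 for each of the 4 genes, and 0% of the 13244 genes tested were called, with 94 genes at an unadjusted p below 0.05 and 0 genes called by DESeq2. In OLs the log2 fold changes were 0.17 for Asns, -0.19 for Slc7a3, -0.19 for Aldh1l2 and 0.53 for Pck2. Pck2 had an SE of 0.25 and an edgeR adjusted p of 0.445, and 0% of the 12893 genes tested were called, with 1440 genes at an unadjusted p below 0.05 and 0 genes called by DESeq2. With the replicate block, edgeR called 4 genes in OPCs and 13 in OLs, and 0 of the 4 genes were among them.

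Set against untreated OLs, the OL DTG libraries gave log2 fold changes of 2.17 (SE 0.17) for Asns, 2.14 (SE 0.53) for Slc7a3, 1.58 (SE 0.55) for Aldh1l2 and 2.08 (SE 0.34) for Pck2. These values share the DTG libraries with the comparison that chose the genes and are a description. Here 0.318% of the 12886 genes tested were called, Asns and Pck2 among them, and the replicate block called all 4. The groups did not overlap for any of the 4 genes, which held in the higher direction for 6.11% of the genes tested.

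**Figure D3:**
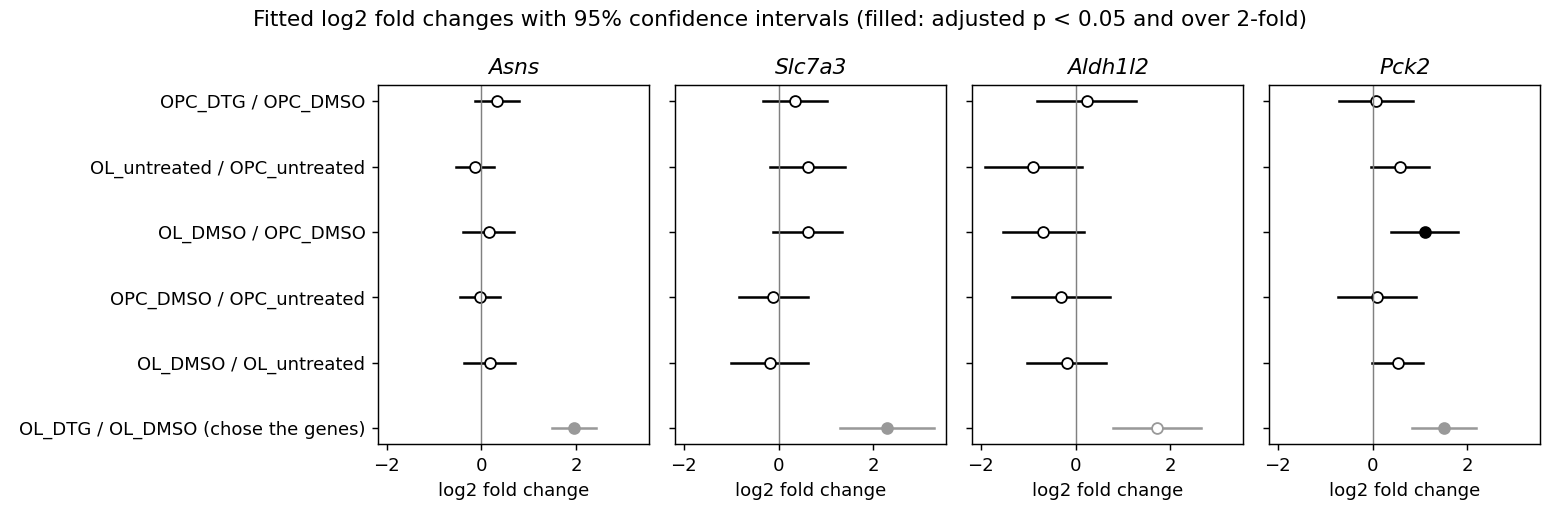
Fitted log2 fold changes (points) with 95% confidence intervals (lines) of the 4 genes in 6 comparisons, filled where the adjusted p was below 0.05 and the change over 2-fold. Outside the grey bottom row, which chose the genes, only Pck2 between OLs and OPCs under DMSO, at 1.10, is filled.

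To compare the genes with each other, CPM were divided by the exonic length in kilobases. In OPCs with DMSO, Asns stood at 18.8 ± 2.78 CPM per kb (SD, n = 4), Pck2 at 3.20 ± 1.30, Slc7a3 at 2.31 ± 0.74 and Aldh1l2 at 2.25 ± 1.25. Asns was well above the other three, whose spreads overlapped. In OLs with DTG, Asns stood at 80.4 ± 12.7 CPM per kb, Pck2 at 19.1 ± 10.2, Slc7a3 at 17.2 ± 14.7 and Aldh1l2 at 4.58 ± 3.43 (SD, n = 4). Pck2 and Slc7a3 lay within each other's spread there.

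The order of the 6 groups differed between the genes. For Asns the group means in CPM ran from 39.9 in untreated OLs through 41.8, 43.7 and 46.0 to 52.6 in OPCs with DTG, and then 179 in OLs with DTG. Neighbours among the lower 5 groups overlapped in their libraries. For Slc7a3 the 3 OPC groups were lowest, at 7.02 to 8.85 CPM, followed by 10.5 and 11.8 CPM in OLs with DMSO and without treatment, and 52.2 CPM in OLs with DTG. For Pck2 the OPC groups were again lowest, but the DMSO mean in OLs, 12.9 CPM, lay above the untreated mean, 8.71 CPM, with overlapping libraries. The Aldh1l2 means were 3.82 and 4.14 CPM in the OL groups without drug, 6.23 to 7.81 CPM in the OPC groups and 12.7 CPM in OLs with DTG. The OL and OPC libraries without drug overlapped, neither stage comparison called Aldh1l2, and under DMSO replicate 2 was higher in OLs, at 5.07 against 2.81 CPM. The Aldh1l2 libraries of OLs with DTG, from 6.43 to 26.6 CPM, overlapped those of each OPC group. With DTG, the OL level of Aldh1l2 was 1.08-fold to 2.16-fold its OPC level within a replicate number, where for Asns it was 3.04-fold to 3.82-fold.

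The 4 genes varied together to unequal degrees. Over the 22 libraries the Pearson r of log2 CPM was 0.91 between Slc7a3 and Pck2, 0.82 between Asns and Pck2 and 0.78 between Asns and Slc7a3. Over these libraries Aldh1l2 was less like them, with r of 0.58 to Slc7a3, 0.55 to Asns and 0.41 to Pck2. Within a stage it was not set apart in this way. In the 11 OL libraries Aldh1l2 had r of 0.83 to Slc7a3, 0.76 to Pck2 and 0.70 to Asns, where the other three pairs had 0.75 to 0.89. In the 11 OPC libraries it had 0.80 to Slc7a3, 0.67 to Asns and 0.62 to Pck2, beside 0.87 between Slc7a3 and Pck2, 0.68 between Asns and Slc7a3 and 0.56 between Asns and Pck2. These are descriptions, since the libraries share stage, treatment and litter and the OL groups with and without DTG set much of the spread.

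The genes most like each member were sought among the 13943 that passed the filter on low counts, and only genes that the study's tables name could be given a symbol. Those tables list changed genes, so the genes given here are the closest named ones and unnamed genes can lie closer. Most like Asns were Eif4ebp1, a translation repressor (r = 0.95), Trib3, a pseudokinase (0.91), Chac1, which degrades glutathione (0.89), Atf4 (0.88) and Sesn2, a leucine sensor (0.86). Most like Slc7a3 after Pck2 were Trib3 (0.90), the secreted glycoprotein gene Stc2 (0.87), the membrane-bound transcription factor gene Creb3l1 (0.83) and Chac1 (0.80). Most like Pck2 were Creb3l1 (0.93), Chac1 (0.92), Slc7a3 (0.91), Stc2 (0.90) and Trib3 (0.90). Of the named genes, the closest to Aldh1l2 was Mthfd2, an enzyme of the same mitochondrial folate pathway (0.73), at rank 9 of all genes. Next were Slc7a1 (0.70, rank 11) and the fucosyltransferase gene Fut1 (0.63, rank 40). Slc7a5, the large neutral amino acid carrier (0.62), stood at rank 46 and the laminin gene Lamb3 (0.59) at rank 66. Over the 11 OL libraries alone, 3 of the 5 genes named for Asns stayed among its closest 5 named genes. For Pck2 it was 1 of 5, and for Slc7a3 and for Aldh1l2 it was 0 of 5.

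The wider pathway was followed by lists of 128 genes, of which 26 could be matched to an identifier, all through tables in which the study had listed genes changed in these libraries. The matched genes are therefore no independent sample of their lists, and with so few matched, the counts say nothing of the lists as a whole. Without the 4 genes, 21 of 22 matched genes were tested in OLs with DTG against DMSO, of which 11 were called higher and 1 lower, with a median log2 fold change of 1.23 against 0.01 over all genes. Of all genes tested 0.582% were called, but tables of changed genes gave the matched ones their identifiers, so nothing is read from the difference. Among carriers, the cystine carrier gene Slc7a11 had a log2 fold change of 2.49 (SE 0.22), Slc7a7, whose product exports cationic amino acids, 1.86 (SE 0.36), Slc7a1 1.29 (SE 0.17) and Slc7a5 1.19 (SE 0.20). Of the 4 other folate genes, Mthfd2 alone was called, at 1.55 (SE 0.21), while the cytosolic enzyme gene Shmt1 had -0.10 (SE 0.27), Mtr, the methionine synthase gene, 0.17 (SE 0.26) and Tyms, the thymidylate synthase gene, 0.64 (SE 0.23). Among sensors and regulators, 6 of 9 were called higher, led by Trib3 at 4.08 (SE 0.47) and Chac1 at 2.43 (SE 0.26). The others were the transcription factor genes Atf3 at 1.96 (SE 0.25), Atf5 at 1.45 (SE 0.27) and Atf4 at 1.12 (SE 0.16), and Sesn2 at 1.33 (SE 0.18). Eif2s1, which encodes the alpha subunit of eIF2, had -0.02 (SE 0.21). Gpd1, the cytosolic glycerol-3-phosphate dehydrogenase gene, was the 1 called lower, at -1.21 (SE 0.19), and with ERCC scaling it had -0.70 (SE 0.56) and was not called.

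In OPCs with DTG against DMSO, 0 of these 22 genes were called and their median log2 fold change was 0.22, against 0.00 over all genes. Trib3 had the largest value there, 1.33 (SE 0.47; edgeR adjusted p = 0.907). Between the stages under DMSO, where 32.6% of all genes were called, 6 of the 22 were called higher in OLs and 9 lower. All 9 lower genes have an identifier through the study's table of genes changed between these stages, so nothing is read from these counts. The 4 other folate genes were among the lower ones, and only 5 of the 22 listed folate genes were matched. Tyms had a log2 fold change of -2.90 (SE 0.31), Shmt1 -1.49 (SE 0.25), Mtr -1.37 (SE 0.29) and Mthfd2 -1.30 (SE 0.25), beside -0.68 for Aldh1l2, which was not called. Also lower were the neutral amino acid carrier genes Slc1a5 at -2.78 (SE 0.18), Slc43a1 at -2.56 (SE 0.62) and Slc38a1 at -1.25 (SE 0.24), and the regulators Cebpg at -1.27 (SE 0.22) and Eif2s1 at -1.19 (SE 0.30). Called higher were Gpd1 at 3.13 (SE 0.28), Atf5 at 2.16 (SE 0.34), Atf3 at 2.00 (SE 0.37), Chac1 at 1.76 (SE 0.37), Trib3 at 1.48 (SE 0.45) and Slc7a7 at 1.43 (SE 0.47). With ERCC scaling these 6 kept a value above 0, and Gpd1 alone of them was called, at 1.93.

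In untreated cultures, where 23.0% of all genes were called, 4 of the 22 were called higher in OLs and 5 lower. The lower 5 have an identifier through the study's table of stage changes under DMSO, so nothing is read from these counts either. Tyms, Shmt1, Mthfd2, Slc1a5 and Slc43a1 were lower, with log2 fold changes of -1.49 for Mthfd2 to -2.83 for Slc1a5, and Gpd1, Atf3, Atf5 and Slc7a11 were higher, with 1.15 for Slc7a11 to 2.57 for Gpd1. Mtr was not called, at -0.57 (SE 0.26; edgeR adjusted p = 0.110). With ERCC scaling Gpd1 alone of the higher 4 was called.

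**Figure D4:**
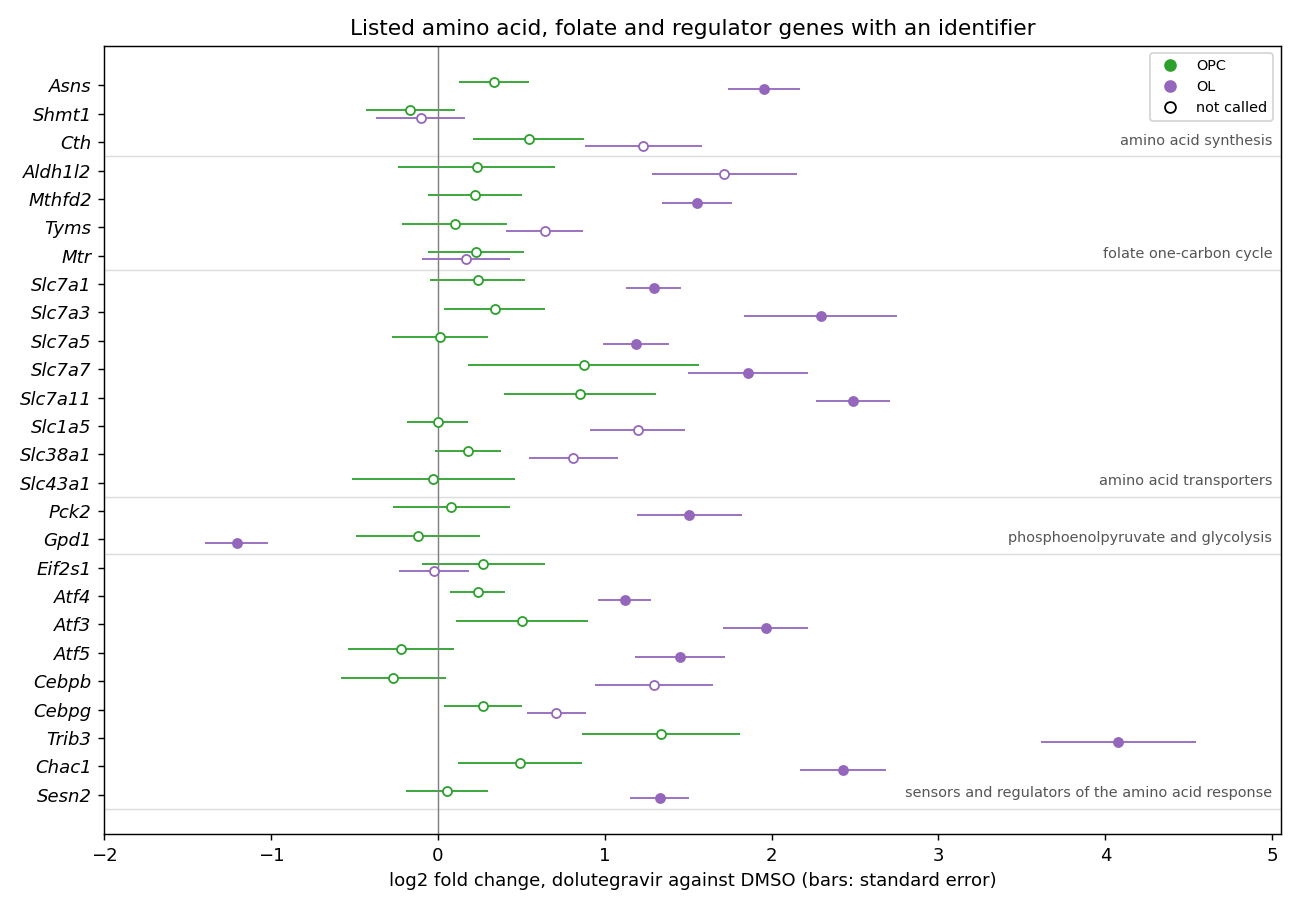
Log2 fold changes of DTG over DMSO (points, with the SE as bars) for the listed genes that have an identifier, in OPCs (green) and OLs (purple), open where not called. The OPC points are all open, with a median of 0.23 and Trib3 farthest to the right. In OLs Trib3 again lies farthest to the right, at 4.08, and Gpd1 farthest to the left, at -1.21.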

How the data were processed

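RNA-seq was available for 24 libraries in 6 groups of 4. The authors aligned reads with STAR 2.5.2b and counted unique exon reads with featureCounts (Subread 1.5.2), and they deposited raw counts per gene, with ERCC controls added to equal amounts of total RNA. Between 13241279 and 18499994 gene counts a library leave the lowest member at 18 counts. ERCC rows were kept out of the tests. Counts were filtered (filterByExpr), scaled by TMM and tested with edgeR 4.0.16 by quasi-likelihood with Benjamini-Hochberg adjustment over the whole table. Calls needed an adjusted p below 0.05 and an absolute log2 fold change above 1. DESeq2, other scalings, filters, a replicate block and leaving out each library were the alternatives. Levels are CPM over 22 libraries. Similarity is Pearson's r of log2 CPM with a prior count of 2. The fits were tested on simulated data.

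Untreated replicate 3 at both stages rests on another annotation and enters only where stated. Symbols came from the study's own tables, which name 2107 identifiers. Aldh1l1, Pck1 and Slc7a2, relatives of the members, had no identifier and were not analysed here, and 1 gene of the lists is not reported here. Text names the members, listed genes that were called or contrast with them, and the 5 most similar named genes for each member.

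Same-numbered libraries share a date in their library names across the 6 groups, so the number pairs them, although numbers 2 and 3 share 1 date. The correlation of same-numbered deviations from the group means ranged from 0.03 to 0.37 between DTG and DMSO in OLs and from -0.07 to 0.79 in OPCs. The members and lists were chosen with earlier results of these data known.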

Additional observations from a re-analysis of the deposited data

Results flagged for a closer look

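Levels of the 4 genes were searched for a library far from the other three of its group, over 24 sets of 4 libraries, and 4 stood out by the gap to the nearest library over the range of the group (chance gives about 1 in 20). Slc7a3 in OLs with DTG stood at 119 CPM in replicate 1, with a gap of 0.99 of the range. On the scale of shared identifiers, Slc7a3 in untreated OLs stood at 19.0 CPM in replicate 1, Aldh1l2 in untreated OLs at 1.55 CPM in replicate 2, from 18 counts, and Pck2 in untreated OLs at 20.9 CPM in replicate 3, the library counted on the other annotation. The cause was not tested for any of these.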

How the results depend on the processing

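For OLs with DTG against DMSO, 74 genes were called, against 129 with DESeq2, 173 with the replicate block and 112 with no minimum fold. No filter on low counts gave 98, with Aldh1l2 among them, and ERCC scaling gave 19. Leaving out 1 library gave 28 to 94, with 1 to 3 of the 4 genes among them. Against untreated OLs, 41 became 117 (DESeq2), 165 (replicate block, with 4 of the 4 genes), 65 (no filter), 9 (ERCC scaling, with 0 of the 4) and 7 to 37 (1 library left out, with 1 to 2 of the 4), and all libraries on shared identifiers called 1 of the 4. Between stages, the 4245 genes under DMSO became 6979 with ERCC scaling, 6941 with no minimum fold and 3717 to 5278 with 1 library left out (0 to 1 of the 4 genes), and ERCC scaling called Aldh1l2 in place of Pck2. The 3016 untreated genes became 5095 with no minimum fold, and shared identifiers called 1 of the 4, Pck2. The replicate block called 4 and 13 genes in place of 0 for DMSO against no treatment in OPCs and OLs. The replicate block added Aldh1l2 to the calls against DMSO in OLs and Slc7a3 and Aldh1l2 to those against untreated OLs, and it changed no other call of the 4 genes.

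Signs turned only among values that were not called, or for Pck2 under ERCC scaling. With ERCC scaling, the stage values under DMSO were -1.32 for Asns, -0.73 for Slc7a3 and -0.25 for Pck2, the untreated one of Pck2 was -0.038, and DMSO against no treatment gave 0.15 for Asns in OPCs and -0.48 for Asns and -0.094 for Pck2 in OLs. Shared identifiers gave 0.12 for Asns between untreated stages, and 0.039 for Asns and 0.041 for Slc7a3 in OPCs with DMSO against none. There the replicate block gave 0.038 for Asns and 0.00434 for Slc7a3, and in OLs -0.042 for Asns. Leaving out 1 library gave -0.15 to 0.64 for Aldh1l2 and -0.12 to 0.37 for Pck2 in OPCs with DTG, and -0.00049 to 0.36 for Asns between stages under DMSO. For DMSO against no treatment it gave -0.15 to 0.076 for Asns, -0.35 to 0.091 for Slc7a3, -0.70 to 0.12 for Aldh1l2 and -0.22 to 0.27 for Pck2 in OPCs, and -0.0104 to 0.37 for Asns, -0.50 to 0.30 for Slc7a3 and -0.50 to 0.074 for Aldh1l2 in OLs.

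In the OPC libraries with DTG or DMSO the 4 genes had 41 to 1397 counts. At that depth and replicate spread, the unpaired intervals of the main fit left room for rises with DTG of up to 0.80 to 1.27 on the log2 scale. With the replicate block, the interval of Aldh1l2 reached 0.65 in place of 1.27. With ERCC scaling the SE of Asns in OLs with DTG against DMSO was 0.58, against 0.22 with TMM. The cause of these shifts was not tested.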
